A study of Homo sapiens with 40 samples.

Results

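Exon inclusion in the CEP, BBS, IFT and TTC gene families, which supply many proteins of the centrosome and the primary cilium, was followed in human cells whose transcription ran on RNA polymerase II of altered speed. The members were all skipped-exon events in the 5 deposited exon tables whose Ensembl identifier maps to a symbol that begins with CEP, BBS, IFT or TTC followed by a digit. There were 144 such events, out of 16378 distinct events in the tables, and they lay in 59 genes: 23 CEP, 6 BBS, 13 IFT and 17 TTC genes. The choice used names and no measured value.

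The cells were HEK293 Flp-in T-REx, a human embryonic kidney line that carries a site for inducible transgenes. They expressed Rpb1, the largest subunit of RNA polymerase II, in an α-amanitin-resistant form that was either wild type (WT) or carried the substitution R749H, H1106Y or E1126G. In every group, WT included, doxycycline induced the transgene over 12 to 16 h, and α-amanitin, which stops the endogenous polymerase, followed for 42 h. In RNA-seq of polyA+ RNA, WT, R749H and E1126G each had 2 libraries. RASL-seq, in which probe pairs ligated at chosen splice junctions are counted, had 3 libraries each of WT and all 3 mutants. R749H and H1106Y are known as slow forms of the polymerase and E1126G as a fast form. The labels do not say whether a line was 1 clone, and the 16 GRO-seq samples are not analysed here.

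The centrosome organises microtubules around a pair of centrioles. The older centriole can dock at the cell membrane through its distal appendages and grow a cilium, which is extended and supplied by the intraflagellar transport complexes IFT-A and IFT-B. The BBSome, a coat-like complex assembled with the help of chaperonin-like proteins, moves membrane proteins out of the cilium. TTC names only a shared protein motif, the tetratricopeptide repeat, so the TTC symbols hold ciliary proteins such as TTC8, a BBSome subunit, beside others such as TTC19, a mitochondrial protein needed for respiratory complex III. The family name is therefore only in part a description of these structures. The tables hold no expression levels, so the cell line could not be checked against marker genes.

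Each level is pooled over libraries, because the authors deposited comparisons of mutants with WT and no value per library. No replicate error can be given, and whether libraries overlap cannot be seen. Inclusion is the share of inclusion reads among inclusion and exclusion reads of an event, computed from the deposited ratios, and the depth behind it is unknown. An event was called at a deposited p-value under 0.05 after Benjamini-Hochberg adjustment across its whole table. Log2 changes are of the ratio of inclusion to exclusion, mutant over WT. In bulk RNA, fewer cells that include an exon and less inclusion in each cell cannot be told apart. Coordinates are those of the tables (GRCh37), and whether an exon is coding or untranslated was not looked up.

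Under the slow R749H polymerase, exons of these families moved in both directions. In the largest move, in BBS5, an exon mostly included in WT was mostly skipped. By the authors' deposited RNA-seq values, 22 of 129 member events were called, 17.1%, against 15.1% of all 14358 events. Of these, 10 had higher inclusion, where 7.07% of all events did, and 12 had lower inclusion, where 8.04% did. The calls fell in 18 of 56 genes, beside 1606 of 6332 genes over all events. The share of members called thus lay near that of all events. The median log2 change of the members per the authors' deposited table was -0.07, beside -0.00 over all events.

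Under the fast E1126G polymerase fewer exons were called. By the authors' deposited RNA-seq values, 6 of 117 member events passed, 5.13%, against 6.48% of all 14650 events. Inclusion was higher in 2 of them, where 2.2% of all events were called higher, and lower in 4, where 4.27% were called lower. The median log2 change per the authors' deposited table was -0.05 for members and -0.08 for all events. The members again lay near the background. Calls in both mutants were made for 3 events, the exons of IFT27, CEP95 and TTC38 (148 nt), each in the same direction. The share of all events called in both mutants was not computed, so this count has no background beside it. R749H and E1126G were compared with the same WT libraries, and 108 member events were present in both RNA-seq tables.

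**Figure D1:**
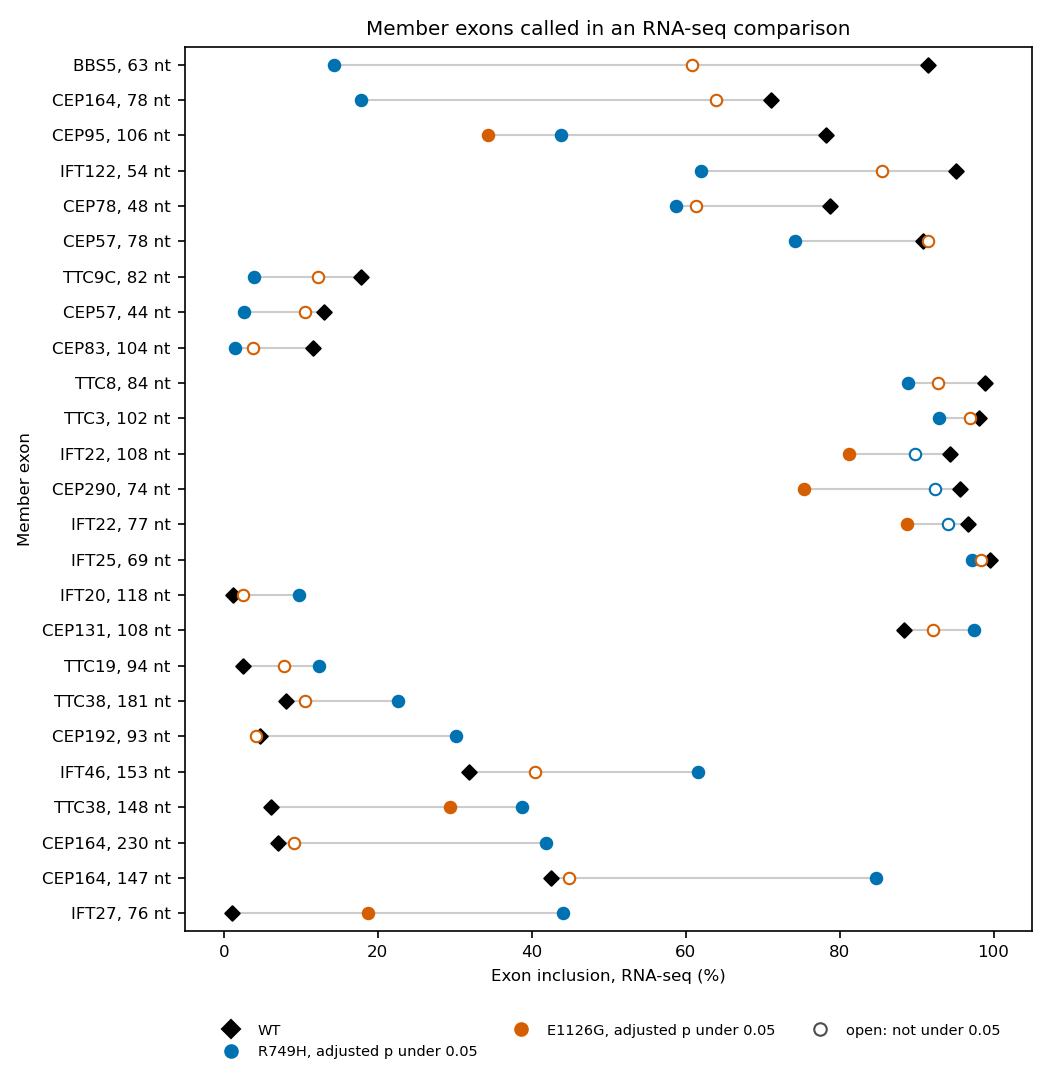
Exon inclusion in percent (x axis) of the 25 member exons called in an RNA-seq comparison (y axis, gene and exon length). Diamonds show WT, blue circles R749H and orange circles E1126G, filled where the adjusted p was under 0.05; the BBS5 exon goes from 91.5% in WT to 14.3% in R749H, and the IFT27 exon from 1.02% to 44.1%.

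The largest move of a member in percentage points was in the BBSome. A 63-nt exon of BBS5, which encodes a subunit that binds membrane lipids, lies at chromosome 2, 170354137 to 170354199. Its inclusion was 91.5% in WT, 14.3% in R749H and 60.9% in E1126G, per the authors' deposited tables. The R749H change was a log2 of -6.01 with an adjusted p of 5.2e-06, while the E1126G change of -2.79 was not called (adjusted p = 0.072). Most of the reads counted skipped the exon in R749H and included it in WT and E1126G. The same exon is listed again in the tables under ENSG00000251569, an identifier without a symbol here, and reads of the overlapping annotations cannot be told apart. Exons of BBS1, IFT80 and TTC4 are likewise listed again under other identifiers, and none of these was called.

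TTC8, also known as BBS8, is a second BBSome subunit with a called exon. Its 84-nt exon (chromosome 14, 89341370 to 89341453) was included at 98.9% in WT and at 88.9% in R749H per the authors' deposited table (adjusted p = 7.3e-05). In E1126G it stood at 92.8% and was not called (adjusted p = 0.086). The exon therefore remained included in most transcripts of every group. Among the BBSome and its chaperonins, 2 of 12 events were called in R749H, both lower, 16.7% beside 15.1% of all events, and 0 of 12 in E1126G (6.48% of all events), where 2 had an unadjusted p under 0.05. BBS1, BBS2, BBS4, BBS7 and BBS12 had no called event in any table.

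In the IFT-B complex, which drives transport towards the ciliary tip, exons of IFT27 and IFT20 that WT cells almost always skipped rose in R749H, while the other IFT-B exons under 20% WT inclusion were not called. A 76-nt exon of IFT27, which encodes a small GTPase (chromosome 22, 37156888 to 37156963), was included at 1.02% in WT, 44.1% in R749H and 18.8% in E1126G, per the authors' deposited tables. It rose by a log2 of 6.26 in R749H (adjusted p = 1.9e-17) and of 4.50 in E1126G (adjusted p = 2.7e-06). It was thus near absence in WT and more frequent in both mutants. The changes in R749H and E1126G differed by a log2 of 1.77 (95% interval -0.29 to 3.82), which did not pass an approximate z test of the difference, built from the errors that the deposited p-values imply (adjusted p = 0.59).

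IFT46, a core subunit of IFT-B, had a 153-nt exon (chromosome 11, 118428453 to 118428605) at 31.8% in WT, 61.6% in R749H and 40.5% in E1126G, per the authors' deposited tables. The R749H rise was called (adjusted p = 4.7e-04). An exon of 118 nt in IFT20, an IFT-B subunit that also resides at the Golgi, rose from 1.25% to 9.81% in R749H per the authors' deposited table (adjusted p = 1.8e-04) and stood at 2.52% in E1126G. IFT20 also held an event near the threshold, a 237-nt exon at 63.5% in WT and 48.9% in R749H per the authors' deposited table, which was not called (adjusted p = 0.055). IFT25, the partner of IFT27, had the only lower call of IFT-B in R749H, a 69-nt exon at 99.5% in WT and 97.2% in the mutant per the authors' deposited table. That exon lies outside the rule for named genes and is named here after its values were seen. In all, 4 of 29 IFT-B events were called in R749H, 3 higher and 1 lower, 13.8% beside 15.1% of all events.

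IFT22, a small GTPase-like subunit of IFT-B, was called in E1126G but not in R749H. Several of its 7 events hold the same exon and share reads, so they are not separate measurements. The 108-nt form of one exon (chromosome 7, 100962237 to 100962344) was at 94.3% in WT, 81.3% in E1126G and 89.8% in R749H, per the authors' deposited tables. It fell in E1126G with an adjusted p of 0.029. The 77-nt form, which ends at 100962313, was at 96.7%, 88.7% and 94.1% in the same order per the authors' deposited tables, with an adjusted p of 0.018 in E1126G. The same 77-nt exon is listed in another event, at 95.3%, 86.3% and 90.6% in that order per the authors' deposited tables, and was not called there (adjusted p = 0.12 in E1126G). The values of R749H lay between those of WT and E1126G in all 3 events. With IFT27, 3 of 26 IFT-B events were called in E1126G, 1 higher and 2 lower, 11.5% beside 6.48% of all events.

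IFT-A, which carries cargo back to the ciliary base, is represented mainly by IFT122, a core subunit. Its 54-nt exon (chromosome 3, 129210984 to 129211037) was included at 95.1% in WT, 62.0% in R749H and 85.5% in E1126G, per the authors' deposited tables. The exon fell in R749H (log2 -3.59, adjusted p = 0.0017) and was not called in E1126G (adjusted p = 0.39). A 77-nt exon of the same gene stood at 69.2% in WT and 41.4% in R749H per the authors' deposited table without being called (adjusted p = 0.13). In R749H 1 of 5 IFT-A events was called (15.1% of all events) and in E1126G 0 of 6 (6.48% of all events), with 0 there at an unadjusted p under 0.05.

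Among the CEP genes, 10 of 50 events were called in R749H, 4 higher and 6 lower, 20% beside 15.1% of all events. In E1126G 2 of 44 were called, both lower, 4.55% beside 6.48% of all events. CEP164, a distal appendage protein needed to start a cilium, had 3 called exons that moved in opposite directions within the gene in R749H. A 78-nt exon (chromosome 11, 117234145 to 117234222) was at 71.1% in WT and 17.9% in R749H per the authors' deposited table (log2 -3.50, adjusted p = 9.0e-07). A 147-nt exon further on (117253512 to 117253658) rose from 42.5% to 84.7% per the authors' deposited table (adjusted p = 6.2e-04). A 230-nt exon (117279242 to 117279471) rose from 7.04% to 41.8% per the authors' deposited table (adjusted p = 0.0026). In E1126G these exons stood at 63.9%, 44.8% and 9.09% in that order per the authors' deposited table, and none was called. The 2 other CEP164 events, of 76 nt and 103 nt, were not called in either mutant.

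CEP83, another distal appendage protein, had a 104-nt exon that fell from 11.6% to 1.43% in R749H per the authors' deposited table (adjusted p = 0.040). CEP192, which recruits the kinase PLK4 to start centriole duplication, had a 93-nt exon (chromosome 18, 13103874 to 13103966) at 4.76% in WT, 30.2% in R749H and 4.17% in E1126G, per the authors' deposited tables. Its rise in R749H had an adjusted p of 1.8e-05. E1126G was close to the WT level for this exon. A 174-nt exon of CEP192 was the nearest member outside the threshold, at 97.6% in WT and 90.2% in R749H per the authors' deposited table (adjusted p = 0.055). The nearest member inside was a 108-nt exon of CEP131, a protein of the centriolar satellites, which rose from 88.4% to 97.5% per the authors' deposited table (adjusted p = 0.045).

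CEP57, a protein around the centrioles, had 2 exons called lower in R749H. The 78-nt exon (chromosome 11, 95555663 to 95555740) was at 90.9% in WT, 74.2% in R749H and 91.5% in E1126G, per the authors' deposited tables, with an adjusted p of 4.1e-04 in R749H. The 44-nt exon fell from 13.0% to 2.63% in R749H per the authors' deposited table (adjusted p = 0.023) and stood at 10.5% in E1126G. Both exons were near the WT level in E1126G. A 48-nt exon of CEP78 fell from 78.8% to 58.8% in R749H per the authors' deposited table (adjusted p = 0.021) and was at 61.4% in E1126G without being called (adjusted p = 0.11).

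CEP95 and CEP290 were the CEP genes called in E1126G by RNA-seq. A 106-nt exon of CEP95 (chromosome 17, 62512841 to 62512946) was at 78.3% in WT, 43.8% in R749H and 34.3% in E1126G, per the authors' deposited tables. It fell in both mutants (adjusted p = 0.025 and 0.0058). CEP290, a protein of the transition zone at the ciliary base, had a 74-nt exon (chromosome 12, 88448117 to 88448190) at 95.7% in WT, 75.3% in E1126G and 92.3% in R749H, per the authors' deposited tables. The exon fell in E1126G (log2 -2.85, adjusted p = 2.3e-08) and was not called in R749H (adjusted p = 0.33). The other CEP290 events were not called.

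Of the TTC genes outside these complexes, 5 of 33 events were called in R749H, 3 higher and 2 lower, 15.2% beside 15.1% of all events, and 1 of 29 in E1126G, 3.45% beside 6.48%. TTC38 held 2 of them. Its 148-nt exon (chromosome 22, 46665039 to 46665186) was at 6.12% in WT, 38.8% in R749H and 29.4% in E1126G, per the authors' deposited tables, and rose in both (adjusted p = 9.1e-05 and 0.011). Its 181-nt exon rose from 8.15% to 22.6% in R749H per the authors' deposited table (adjusted p = 0.043). A 94-nt exon of TTC19 rose from 2.54% to 12.4% in R749H per the authors' deposited table (adjusted p = 0.0011) and was at 7.83% in E1126G, just outside the threshold (adjusted p = 0.063). An 82-nt exon of TTC9C fell from 17.9% to 3.90% in R749H per the authors' deposited table (adjusted p = 0.0014). A 102-nt exon of TTC3, a ubiquitin ligase, fell from 98.1% to 92.9% per the authors' deposited table and is named after its values were seen.

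Size and call did not always go together. The 328-nt exon of IFT88, an IFT-B subunit, was at 28.6% in WT and 80% in R749H per the authors' deposited table and was not called (adjusted p = 0.15). A 103-nt exon of TTC12, a factor for assembling motile cilia, went from 9.52% in WT to 66.7% in E1126G per the authors' deposited table without a call (adjusted p = 0.11). A 117-nt exon of CEP170 was at 28.6% in WT and 4.17% in R749H per the authors' deposited table (adjusted p = 0.18), and a 93-nt exon of CEP350 at 11.5% and 42.0% (adjusted p = 0.059). These 4 genes had no call in any table, and their exons were chosen for mention after their values were seen. Conversely, 5 of the 22 R749H RNA-seq calls moved by less than 10 percentage points, beside 735 of the 2169 calls over all events.

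**Figure D2:**
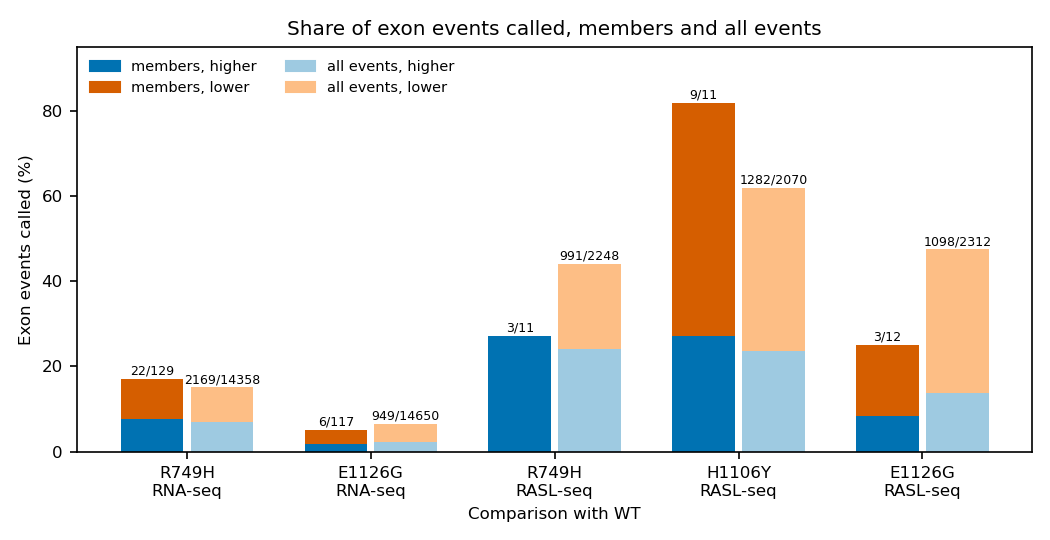
Share of exon events called (y axis, percent) in each comparison with WT (x axis). Dark bars are the members and light bars all events, blue for higher and orange for lower inclusion, with counts above; members stand at 17.1% against 15.1% in R749H RNA-seq and at 81.8% against 61.9% in H1106Y RASL-seq.

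The calls were split by the level in WT. In R749H RNA-seq, 29 members had a WT inclusion under 20%, and 10 of them were called, 7 higher and 3 lower. That is 34.5% of these members, against 15% of the 3076 events of that class in the whole table, of which 340 were called higher and 121 lower. Between 20% and 80%, 5 of 28 members were called, 17.9% against 25.2% of all events. From 80% upwards, 7 of 72 were called, 9.72% against 11.8%, 1 higher and 6 lower, where all events of the class had 339 higher and 665 lower. Higher calls thus outnumbered lower ones at low WT inclusion and the reverse held at high WT inclusion, in the whole table as among the members. The WT value that sets the class also enters each change, and inclusion has a floor and a ceiling. The split therefore favours this pattern of directions in advance, and no link between WT level and direction can be read from it. In E1126G RNA-seq 2 of 28 members under 20% were called, both higher, 7.14% against 5.81% of all events of that class. In H1106Y RASL-seq 3 of the 4 members under 20% were called, 1 higher and 2 lower, 75% against 61.1%. Of the 530 events of that class there, 185 were called higher and 139 lower. By RASL-seq 1 of 4 such members was called in R749H, against 43.7%, and 0 of 4 in E1126G, against 45.7%. In R749H RNA-seq the median WT inclusion was 6.58% for members called higher and 84.8% for members called lower per the authors' deposited table. For all events called so it was 45.4% and 88.4%. The low-inclusion members called higher are the exons of IFT27, IFT20, CEP192, TTC38 and TTC19 and the 230-nt exon of CEP164. These shares were not tested against each other.

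**Figure D3:**
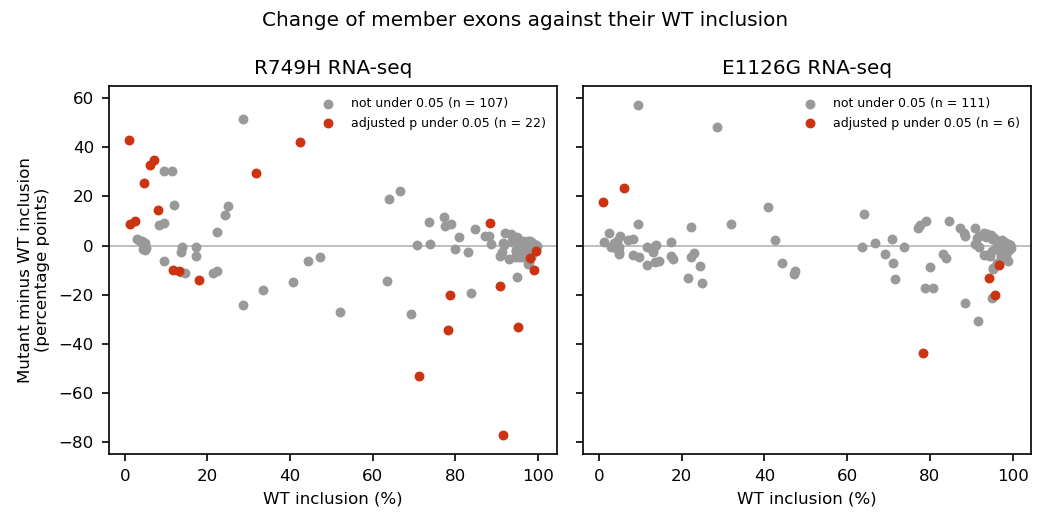
Change in exon inclusion in percentage points, mutant minus WT (y axis), against WT inclusion in percent (x axis) for the member events of R749H (left, 129 events) and E1126G (right, 117 events) in RNA-seq. Red points have an adjusted p under 0.05, 22 on the left and 6 on the right; on the left, 7 of the 10 called points under 20% WT inclusion lie above 0. The WT value enters both axes.

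The exons were of ordinary size. In R749H RNA-seq the members had a median length of 109 nt, against 108 nt for all events, and the stretch from the upstream to the downstream exon had a median of 6415 nt against 5124 nt. A length divisible by 3, which leaves the reading frame intact if the exon is coding, was found in 63 of 129 members, 48.8% against 43.5% of all events. Of the called members 12 of 22 had such a length, beside 1014 of the 2169 called events of the whole table. Among lower calls it was 8 of 12 members beside 580 of 1154 events, and among higher calls 4 of 10 beside 434 of 1015. In E1126G 1 of the 6 called members did, beside 431 of 949 events. The IFT27, IFT20, TTC38 and TTC19 exons that rose in R749H have lengths that are not divisible by 3, as has the 230-nt exon of CEP164, while the exons of CEP192, IFT46 and CEP131 and the 147-nt exon of CEP164 have lengths that are.

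RASL-seq covered 13 member events, of which 10 were present in all 3 tables, and included the second slow mutant, H1106Y. In R749H, by the authors' deposited values, 3 of 11 members were called, 27.3% against 44.1% of all events, and all 3 were higher, where 24% of all events were called higher and 20.1% lower. In H1106Y 9 of 11 members were called, 81.8% against 61.9% of all events. Of these 3 were higher, against 23.7% of all events, and 6 lower, against 38.2%. In E1126G 3 of 12 were called, 25% against 47.5%, 1 higher and 2 lower, against 13.9% and 33.6% of all events. Every member called in R749H or E1126G by RASL-seq moved by less than 10 percentage points, and 5 of the 9 called in H1106Y moved by at least 10. Among all called events, 376 of 991 in R749H, 680 of 1282 in H1106Y and 414 of 1098 in E1126G moved by at least 10. The members' median log2 change in H1106Y was -1.26 per the authors' deposited table, beside -0.33 over all events.

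**Figure D4:**
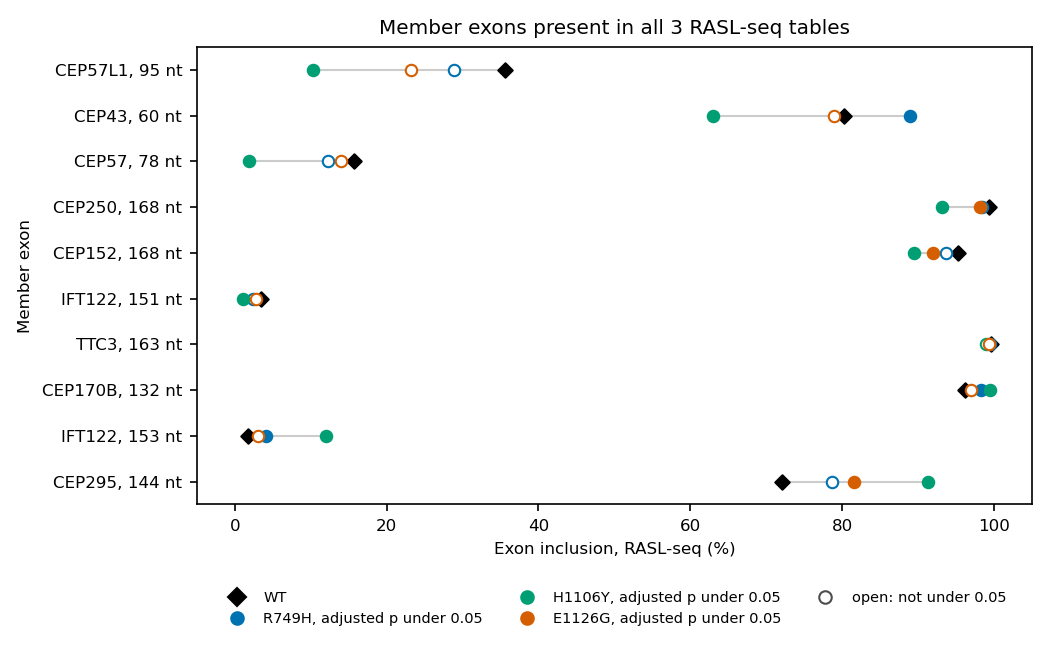
Exon inclusion in percent by RASL-seq (x axis) for the 10 member exons present in all 3 tables (y axis, gene and exon length). Diamonds show WT, blue circles R749H, green H1106Y and orange E1126G, filled where the adjusted p was under 0.05; the CEP43 exon is at 80.2% in WT, 88.9% in R749H and 63.0% in H1106Y.

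CEP43, a centriolar protein also called FOP, moved in opposite directions in the slow mutants. Its 60-nt exon (chromosome 6, 167426996 to 167427055) was at 80.2% in WT, 88.9% in R749H, 63.0% in H1106Y and 79.0% in E1126G, per the authors' deposited RASL-seq tables. It rose in R749H (adjusted p = 2.0e-06) and fell in H1106Y (adjusted p = 1.4e-11), and was not called in E1126G (adjusted p = 0.42). The log2 change differed between R749H and H1106Y by 2.24 (95% interval 1.72 to 2.75, adjusted p = 6.6e-16) in an approximate z test built from the authors' deposited tables. In RNA-seq the same exon was at 73.8% in WT, 74.5% in R749H and 73.1% in E1126G per the authors' deposited tables, with no call.

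CEP57 gave the smallest adjusted p of any member. By RASL-seq its 78-nt exon was at 15.7% in WT, 12.2% in R749H, 1.94% in H1106Y and 13.9% in E1126G, per the authors' deposited tables. It fell in H1106Y (log2 -3.24, adjusted p = 9.1e-46) and was not called in R749H (adjusted p = 0.19) or E1126G (adjusted p = 0.27). H1106Y was the lowest of the 4 groups. The WT level of this exon was 90.9% in RNA-seq and 15.7% in RASL-seq per the authors' deposited tables, so its levels in the assays cannot be set side by side. The reason for this gap was not tested, and it limits the reading of the H1106Y change. In the same order, WT levels were 91.8% and 95.2% for the CEP152 exon, 79.0% and 72.1% for CEP295, and 73.8% and 80.2% for CEP43. A 95-nt exon of CEP57L1, the paralogue of CEP57, was at 35.6% in WT, 28.9% in R749H, 10.3% in H1106Y and 23.2% in E1126G, per the authors' deposited RASL-seq tables, and fell in H1106Y (adjusted p = 0.0024). The difference of H1106Y from R749H in CEP57L1 did not pass (adjusted p = 0.088).

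CEP295, needed for centrioles to mature into centrosomes, had a 144-nt exon (chromosome 11, 93435942 to 93436085) at 72.1% in WT, 78.6% in R749H, 91.3% in H1106Y and 81.6% in E1126G, per the authors' deposited RASL-seq tables. It rose in H1106Y (adjusted p = 9.9e-11) and E1126G (adjusted p = 0.0016), the fast mutant included. In R749H it was not called (adjusted p = 0.10). The same exon was at 79.0% in WT, 87.8% in R749H and 89.1% in E1126G per the authors' deposited RNA-seq tables, without a call. A 132-nt exon of CEP170B, a paralogue of the centrosomal protein CEP170, was at 96.1% in WT, 98.3% in R749H, 99.5% in H1106Y and 97.0% in E1126G per the authors' deposited RASL-seq tables. It rose in R749H (adjusted p = 5.9e-04) and H1106Y (adjusted p = 2.8e-08).

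CEP152, a PLK4 scaffold, and CEP250, also called C-Nap1, which links the centrioles of a pair, lost inclusion in H1106Y and E1126G. The 168-nt exon of CEP152 was at 95.2% in WT, 93.6% in R749H, 89.5% in H1106Y and 92.0% in E1126G, per the authors' deposited RASL-seq tables, and fell in H1106Y (adjusted p = 5.5e-07) and E1126G (adjusted p = 6.6e-05). By RNA-seq this exon was at 91.8% in WT, 92.0% in R749H and 91.2% in E1126G per the authors' deposited tables, with no call. The 168-nt exon of CEP250 was at 99.4% in WT, 98.5% in R749H, 93.2% in H1106Y and 98.2% in E1126G, per the authors' deposited RASL-seq tables. It fell in H1106Y (adjusted p = 1.6e-10) and E1126G (adjusted p = 0.011). In R749H neither exon was called by RASL-seq (adjusted p = 0.12 for CEP152 and 0.063 for CEP250). Both exons were lowest in H1106Y and were included in most transcripts of every group.

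IFT122 was also probed, at exons other than its 54-nt exon. The 153-nt exon (chromosome 3, 129179697 to 129179849) was at 1.79% in WT, 4.10% in R749H, 12.0% in H1106Y and 3.12% in E1126G, per the authors' deposited RASL-seq tables, and rose in R749H (adjusted p = 0.012) and H1106Y (adjusted p = 1.1e-13). The 151-nt exon was at 3.52%, 2.42%, 1.12% and 2.76% in the same order per the authors' deposited tables and fell in H1106Y (adjusted p = 0.022). The exons thus moved in opposite directions in H1106Y. Exons of IFT43, TTC3, TTC7B and BBS1 in the RASL-seq tables were not called. IFT43 had no row for E1126G, and TTC7B and BBS1 had rows for E1126G alone.

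Differences between mutants were tested directly, since a call in 1 mutant and not in another does not show that they differ. In RNA-seq 0 of 108 members differed between R749H and E1126G by the approximate z test with Benjamini-Hochberg adjustment, against 1.74% of all events, and 10 had an unadjusted p under 0.05. The nearest was the 78-nt exon of CEP164, whose R749H change lay below the E1126G change by a log2 difference of -3.02 (95% interval -4.81 to -1.24, adjusted p = 0.052). For the CEP290 exon called in E1126G the difference was 1.98 (0.61 to 3.36, adjusted p = 0.14), and for the BBS5 exon -3.22 (-6.20 to -0.24, adjusted p = 0.38). In RASL-seq 1 of 10 members, CEP43, differed between R749H and E1126G, against 33.8% of all events. Between R749H and H1106Y 7 of 11 differed, against 41.5%, and between H1106Y and E1126G 6 of 10, against 49.3%. The changes were not centred before this test. Over all RASL-seq events the median log2 change was 0.05 in R749H, -0.33 in H1106Y and -0.37 in E1126G, and the differences include these shifts. The intervals of the members not called were wide, so these comparisons do not show that the mutants act alike.

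Other genes of the same structures, from lists of centrosome and cilium genes outside these families, were counted in the same way. In R749H RNA-seq 13 of 84 events of other centrosome genes were called, 8 higher and 5 lower. Of the other cilium genes 13 of 84 events were called, 5 higher and 8 lower. That is 15.5% in each list, beside 15.1% of all events. In E1126G RNA-seq 5 of 91 centrosome events were called, 2 higher and 3 lower, 5.49% beside 6.48% of all events. For the cilium list it was 7 of 83, 3 higher and 4 lower, 8.43%. Of the called events of both lists, the largest R749H change in percentage points was in NEK1, a ciliary kinase, where a 132-nt exon rose from 20.6% to 70.0% per the authors' deposited table (adjusted p = 0.015). A 143-nt exon of CCP110, a cap protein of centrioles, fell from 67.2% to 20.6%, per the authors' deposited table, the next in size by that measure. A 103-nt exon of AHI1, a transition zone protein, fell from 86.3% to 40.3%, per the authors' deposited table. By the same measure, the largest E1126G changes were in STIL and TMEM107. In E1126G 2 overlapping exons of STIL, a centriole duplication factor, of 209 nt and 74 nt, rose from 27.8% to 71.2% and from 29.7% to 70.6% per the authors' deposited table, and share reads. A 68-nt exon of TMEM107, of the transition zone, fell from 64.4% to 30.1% per the authors' deposited table.

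Retained introns were looked for only inside the stretch spanned by the member events of a gene, and the rest of the gene was not searched. In these stretches 7 introns were listed for R749H and 7 for E1126G per the authors' deposited intron tables. By the deposited p-values with Benjamini-Hochberg adjustment none was called in either, against 18.9% of all introns in R749H and 9.18% in E1126G. At an unadjusted p under 0.05 there was 1 in R749H and 0 in E1126G. That intron, of 228 nt in TTC8, was retained at 31.3% in WT and 13.0% in R749H per the authors' deposited table (adjusted p = 0.13).

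Over all 5 exon tables, 33 member events in 26 genes were called at least in 1 comparison, and 33 genes had no called event. The matching shares over all events and all genes were not computed. The genes without a call include the IFT-B subunits IFT52, IFT57, IFT80, IFT81, IFT88 and IFT172, and TTC23, which had 7 events. Of the 7 events in both assays, 4 were in all 5 tables: the exons of CEP152, CEP295 and CEP43 and the 78-nt exon of CEP57. Of these, only CEP57 was called by RNA-seq, in R749H, and all 4 were called in H1106Y by RASL-seq. H1106Y was not among the RNA-seq groups.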

How the data were processed

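The 7 deposited tables, 5 of exons and 2 of introns, are the authors' own comparisons. Each event has the deposited natural log of the WT inclusion to exclusion ratio, the deposited log2 change of that ratio (mutant over WT) and a deposited p-value, unadjusted. The labels' protocols state that RNA-seq replicates, called biological there, were mapped separately with TopHat 1.4.1. The submitters' processing notes name Bowtie 0.12.7, edgeR 3.7.17 and the build GRCh37 (hg19) without a role. Which test gave the p-values is not stated in the labels or files, nor is whether replicate spread entered them. They may therefore measure only the spread between these libraries, which may be technical. Tables that carry a code and no mutant name were assigned to R749H, whose samples' labels list them.

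The log base and sign were tested on the values. Read as natural logs, the ratios in the deposited R749H RNA-seq table were ratios of whole numbers (within a relative 1e-09, with denominators to 300) in 94.3% of events, against 0.376% with base 2. With the opposite sign of the log2 change only 22.2% of mutant ratios were whole. Symbols were found for 6156 of its 6332 Ensembl identifiers.

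Inclusion was 100 times the ratio over 1 plus the ratio, and p-values were adjusted over each whole table (statsmodels 0.14.6). The difference between mutants was an approximate z test from the errors that the deposited p-values imply, treating comparisons as independent although they share WT. The test was chosen after seeing the data. It was tried on simulated data with independent errors, which cannot show the effect of the shared WT. With the errors of R749H RNA-seq it recovered 4.5% of simulated log2 differences of 2 and 49.5% of those of 4. With the errors of E1126G RNA-seq it recovered 10% and 48%. Named were up to 10 called members in each direction per comparison by change in percentage points, exons in all 5 tables, and the 3 largest calls of other centrosome and cilium genes per RNA-seq comparison. The members, lists and rules were chosen with earlier results of these data known. Introns were assigned by position within the span of a gene's member events. GRO-seq is not analysed here, and no sequence is shown.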

Additional observations from a re-analysis of the deposited data

Results flagged for a closer look

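Each result here is a log2 change by RASL-seq that differed between mutants in the approximate z test with an adjusted p under 0.05. The CEP43 exon of 60 nt differed by 1.09 between R749H and E1126G (95% interval 0.66 to 1.52), by 2.24 between R749H and H1106Y and by -1.15 between H1106Y and E1126G (first mutant minus the second in each case). For the CEP57 exon of 78 nt R749H lay above H1106Y by 2.82 (2.14 to 3.49), and H1106Y minus E1126G was -3.04 (-3.57 to -2.51). The CEP295 exon gave -1.52 for R749H minus H1106Y and 1.25 for H1106Y minus E1126G, and the CEP170B exon gave -1.75 and 2.62. The CEP250 exon gave 2.25 and -2.00, and the 153-nt exon of IFT122 gave -1.67 and 2.09. For CEP152 the change in R749H lay above that in H1106Y by 0.78 (0.14 to 1.42, adjusted p = 0.043). None of these differences was centred on the median over all events. That median log2 change by RASL-seq was 0.05 in R749H, -0.33 in H1106Y and -0.37 in E1126G. Part of each difference that involves R749H may thus be shared by all events. Whether the CEP152 difference would pass after centring was not tested.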

How the results depend on the processing

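In R749H RNA-seq the count of called members stayed within 1.5 times its value of 22 under every alternative, from 16 to 29. In E1126G RNA-seq the count of 6 became 3 at a threshold of 0.01, 10 at 0.1, 2 with Benjamini-Yekutieli adjustment, 3 with WT inclusion of 5% to 95% alone and 10 with genes whose synonyms match the rule. In R749H RASL-seq the count of 3 became 0 with a change of at least 10 points, 1 with WT inclusion of 5% to 95% and 5 with synonyms. For H1106Y the count of 9 became 5 and 4 under the first pair of these. For E1126G RASL-seq the count of 3 became 5 at 0.1, 0 with at least 10 points, 1 with 5% to 95% and 5 with synonyms. Differing members went from 0 to 1 for R749H minus E1126G RNA-seq at 0.1, and from 7 to 3 for R749H minus H1106Y at 0.01. Over all RASL-seq events the median log2 change was -0.33 in H1106Y and -0.37 in E1126G. Around the median of each table no called member turned sign, and of the named results 3 that had not been called did: CEP43 in E1126G RNA-seq (0.036), and CEP57 (0.17) and CEP43 (0.26) in E1126G RASL-seq. The 53 named member results include exons in all 5 tables that were not called and so had no call to lose. Among the 53, 12 lost their call at 0.01, 13 with Benjamini-Yekutieli adjustment and 14 with at least 10 points. None did so at 0.1, with synonyms or with each exon counted a single time. Only 34 of the 53 remained with WT inclusion of 5% to 95%, and none of these lost a call. The cause was not tested. No paired analysis was possible because the tables hold no value per library, which also bars leaving out a replicate. Depth is unknown, so precision beyond the deposited p-values cannot be given.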
